A study of Mus musculus with 18 samples.

Results

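The genes described here are 11 of the 10965 genes in the deposited table of mouse embryonic stem cell (ESC) RNA-seq: every gene whose symbol starts with Zscan4, Tcstv or Pramel, together with BC147527 and Gm15698. They are 4 Zscan4 genes, 2 Tcstv genes with their relative BC147527, 3 Pramel genes and Gm15698. The members were chosen by name, from a proposal made with measured values of the same 18 libraries known (which of their comparisons is not stated), so the differences between genotypes are given below as a description of these genes. No p is given for them, and counts of members called between genotypes stand only beside the share of all genes called, with nothing read from them. The annotation of the genome build (GRCm38, GENCODE M21) holds 20 genes that the names take, and the other 9, among them Zscan4a, Zscan4f and 3 Zscan4 pseudogenes, were not analysed here.

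Control (Ctrl) ESCs carry Zeb2 alleles flanked by loxP sites that were not recombined, and Zeb2 knockout (KO) ESCs have lost the floxed part. The labels give strain CD1 for all 18 libraries. Cells of each genotype were collected in ground-state medium with leukaemia inhibitory factor (LIF) and the inhibitors PD0325901 (0.4 µM per the labels) and CHIR99021 (1 µM), which is d0 (the study's methods state higher doses of both inhibitors), and then during neural differentiation (ND) as embryoid bodies. On d4 the cells had been in medium with 15% serum, without LIF or inhibitors, and on d6 in serum-free N2B27 with 500 nM retinoic acid, added from d4. Each of the 6 groups has 3 libraries, which the study calls independent experiments, and the ESC line behind each library is not given in the sources used here.

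In mouse development, Zscan4, Tcstv and several PRAME family genes are switched on at the two-cell stage, when the embryonic genome is activated. ESC cultures hold a rare and transient fraction of cells that express the same genes, called two-cell-like cells, and Zscan4 proteins, which carry a SCAN domain and zinc fingers, are known for telomere lengthening in ESCs. Pramel6 and Pramel7 are known for a role in the inner cell mass and in ground-state pluripotency, where Pramel7 promotes degradation of Uhrf1, a protein needed to maintain DNA methylation. In bulk RNA, fewer expressing cells and less RNA in each such cell cannot be told apart, and this holds for every value below.

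The Zscan4 genes lie within 1 cluster on chromosome 7 (Zscan4b at chr7:10900740-10905050 on the minus strand, Zscan4c at chr7:11005745-11010547 on the plus strand, Zscan4d at chr7:11161374-11166159 and Zscan4e at chr7:11306378-11310682, both on the minus strand). They are close copies of each other, and the first 72 coding bases show how little there is to tell them apart. Capitals mark bases that differ from Zscan4c in the same position.
Zscan4c (chr7:11006556-11006627, plus strand): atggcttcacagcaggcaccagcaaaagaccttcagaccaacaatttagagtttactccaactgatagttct
Zscan4d (chr7:11165277-11165348, minus strand): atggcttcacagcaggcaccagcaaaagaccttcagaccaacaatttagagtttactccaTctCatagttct
Zscan4b (chr7:10904144-10904215, minus strand): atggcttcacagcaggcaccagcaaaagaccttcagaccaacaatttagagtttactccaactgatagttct
Zscan4e (chr7:11309776-11309847, minus strand): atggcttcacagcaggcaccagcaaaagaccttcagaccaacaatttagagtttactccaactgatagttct

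Zscan4d differed from Zscan4c at 2 of these 72 bases, and Zscan4b and Zscan4e at 0. Stretches of the same length not broken by an intron were searched up to the first gap in the alignment of the copies. Among them coding bases 694 to 765 have the most differences, 7 in Zscan4d and 6 in both Zscan4b and Zscan4e. Zscan4b and Zscan4e stay identical to each other here as well.
Zscan4c (chr7:11009169-11009240, plus strand): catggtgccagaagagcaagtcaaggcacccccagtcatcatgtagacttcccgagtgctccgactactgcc
Zscan4d (chr7:11162677-11162748, minus strand): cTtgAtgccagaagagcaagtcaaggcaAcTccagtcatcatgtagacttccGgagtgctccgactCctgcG
Zscan4b (chr7:10901550-10901621, minus strand): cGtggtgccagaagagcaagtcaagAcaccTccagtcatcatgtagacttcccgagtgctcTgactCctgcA
Zscan4e (chr7:11307179-11307250, minus strand): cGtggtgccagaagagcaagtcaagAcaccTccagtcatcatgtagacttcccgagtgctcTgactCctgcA

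Over the whole coding sequence Zscan4b and Zscan4e were 99.7% identical and Zscan4c and Zscan4d 97.7%, with the most distant pair, Zscan4b and Zscan4d, at 96.4%. The deposited table calls Zscan4e an unprocessed pseudogene, while GENCODE M21 gives it a protein-coding transcript.

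The Tcstv genes and BC147527 lie on chromosome 13 (Tcstv1 at chr13:119893388-119894785 on the minus strand, BC147527 at chr13:120300392-120308779 and Tcstv3 at chr13:120316878-120318178, both on the plus strand). Their first 72 coding bases are shown for the same reason, with capitals where a base differs from Tcstv3.
Tcstv3 (chr13:120317567-120317638, plus strand): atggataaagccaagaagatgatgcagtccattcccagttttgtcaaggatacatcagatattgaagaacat
Tcstv1 (chr13:119894023-119894094, minus strand): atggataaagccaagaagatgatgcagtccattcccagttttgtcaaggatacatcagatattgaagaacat
BC147527 (chr13:120308146-120308217, plus strand): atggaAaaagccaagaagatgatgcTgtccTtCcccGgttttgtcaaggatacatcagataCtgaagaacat

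Tcstv1 matched Tcstv3 at all of these bases and BC147527 differed at 6. The whole coding sequences of Tcstv1 and Tcstv3 were 93.6% identical, those of BC147527 and Tcstv3 90% and those of BC147527 and Tcstv1 86.7%. The Pramel genes are much further apart, with 57.4% for Pramel6 (chr2:87506565-87510872, plus strand) and Pramel7 (chr2:87489087-87497093, minus strand), which are neighbours, and 54.3% and 54.9% for each of them with Pramel1 (chr4:143394428-143400160, plus strand). Gm15698 (chr11:88964658-88966931, minus strand) is named Elobl in GENCODE and RefSeq and is no relative of the others.

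Because the libraries were read as single reads of 36 bases, a read can be placed in 1 gene only where its 36 bases are not found in another. Of the 36-base stretches of the Zscan4b transcripts, 94.1% also occur in another annotated gene, with 92.4% for Zscan4e, 90% for Zscan4c and 60.2% for Zscan4d. The share found in other genes was 45% for Tcstv3, 24% for Tcstv1, 20.4% for BC147527 and 17.1% for Gm15698. It was 5.74% for Pramel7, 0.331% for Pramel6 and 0% for Pramel1. How reads with several matches were counted is not given in the sources used here, so values of single Zscan4 genes, and to a lesser degree of single Tcstv genes, are uncertain in their split. The sum of a family in TPM is not free of the split either, since 1 read weighs differently in each gene. In a Ctrl library at d0 it weighed 0.0794 TPM for Zscan4d and 0.187 for Zscan4e. For Tcstv1 it was 0.132 and for Tcstv3 0.557. Reads of copies outside the table, such as Zscan4f and Zscan4a, could also be in a sum.

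**Figure D1:**
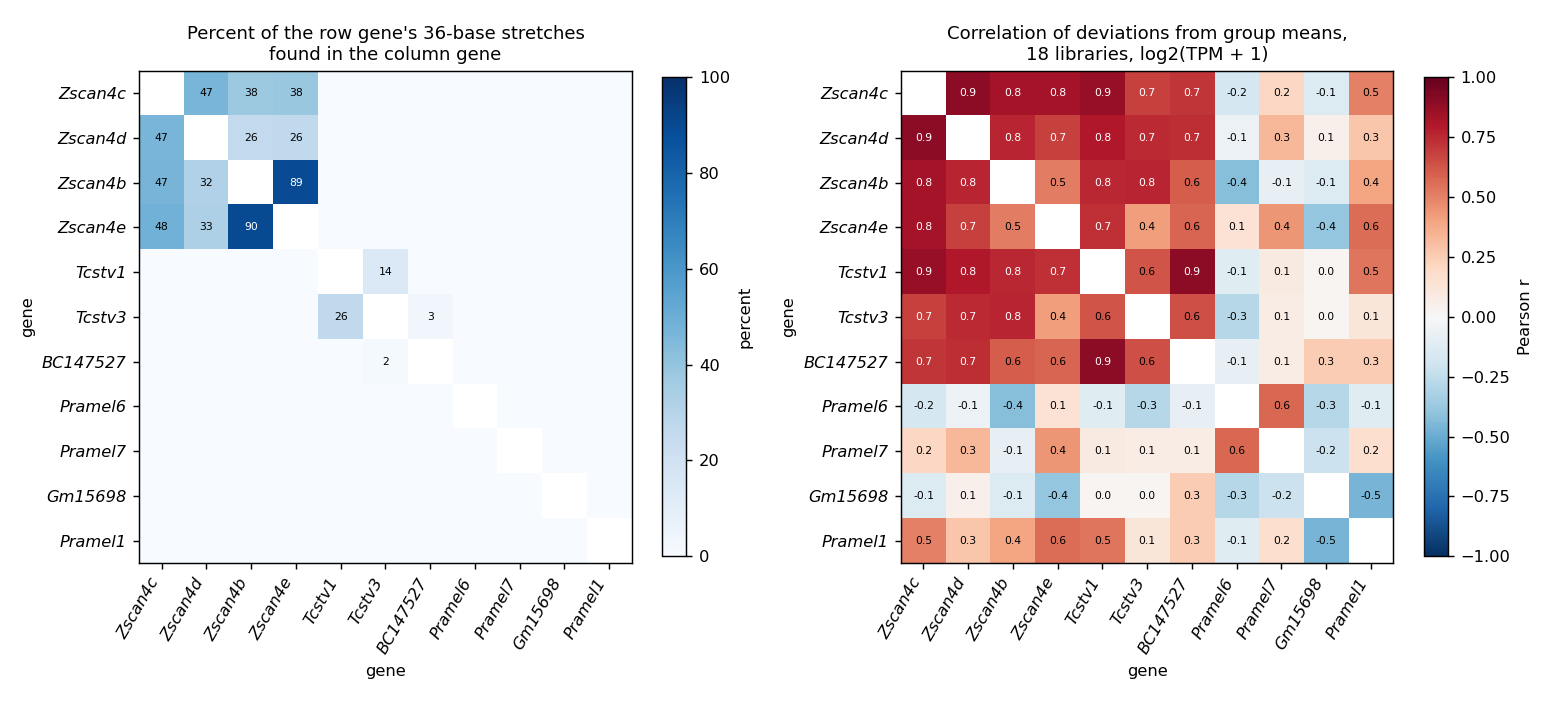
Left, the share (percent) of each row gene's 36-base transcript stretches that also occur in the column gene. Right, Pearson correlation between genes of the deviations from their group means over 18 libraries on the log2(TPM + 1) scale. Diagonals are left blank. The Zscan4 genes form a block on both sides (Zscan4b and Zscan4e share 89.2% and 89.7%), whereas Zscan4 and Tcstv genes share no stretch and yet deviate together. KO d6 replicate 1, which stood out for both, is included.

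The TPM unit counts reads per base of transcript, scaled to a fixed total per library, and so can be set beside each other between genes. The authors added 1 read to each gene, so a gene without a read has a small TPM above 0. Depth was 9622622 to 15617675 reads on the genes of the table per library (median 12131165), recovered from the TPM values. Zeb2 itself, the targeted gene, had 13 to 19 reads in Ctrl at d0, 173 to 193 at d4 and 730 to 949 at d6, against 1 to 3, 12 to 24 and 71 to 84 in KO, so the KO libraries were lower on each day without overlap.

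The 4 Zscan4 genes were low in Ctrl ESCs at d0, rose in Ctrl at d4 and were lower again, though above d0, at d6. In KO they started above Ctrl at d0 and were not called changed at d4 or d6. Summed over the 4 genes, the Ctrl libraries had 8.29 ± 1.25 TPM at d0, 130.4 ± 26.8 at d4 and 57.8 ± 3.43 at d6 (mean ± SD, n = 3), and the KO libraries had 24.7 ± 8.63, 19.6 ± 1.29 and 19.9 ± 15.9.

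Zscan4d, which was given the highest TPM of them, had 3.602, 3.97 and 3.36 TPM in the Ctrl libraries at d0, 59.3, 42.3 and 69.0 at d4, and 25.8, 25.3 and 24.9 at d6. In KO it had 6.98, 9.17 and 14.4 TPM at d0, 7.72, 6.88 and 10.5 at d4, and 16.98, 5.60 and 4.94 at d6. The Ctrl libraries do not overlap between any pair of days. In the KO libraries all values but 1 lie between 4.94 and 14.4 TPM, and the exception is replicate 1 at d6. Behind these values are 863, 566 and 939 reads in Ctrl at d4 and 37 to 53 in Ctrl at d0.

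Zscan4c had 1.77, 2.35 and 2.62 TPM in Ctrl at d0, 38.3, 33.7 and 46.6 at d4, and 17.9, 16.5 and 17.4 at d6. The KO libraries had 6.48, 7.24 and 11.3 TPM at d0, 5.72, 5.29 and 4.87 at d4, and 10.1, 2.49 and 2.74 at d6. As for Zscan4d, every KO library was above every Ctrl library at d0 and below every one at d4 and d6. Zscan4b ranged from 0.545 to 1.78 TPM in Ctrl at d0, 13.8 to 22.2 at d4 and 6.75 to 10.6 at d6, and from 2.31 to 5.01, 2.26 to 4.997 and 1.14 to 4.85 in KO. Zscan4e ranged from 0.749 to 2.29, 12.49 to 17.8 and 5.26 to 8.61 TPM in Ctrl, and from 1.77 to 3.71, 2.07 to 3.73 and 1.38 to 6.23 in KO, with overlap of the genotypes at d0 and at d6. Zscan4e and Zscan4b rest on few reads at d0 in Ctrl, 3 to 10 in each library for both.

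Changes between days within a genotype were tested with limma on log2(TPM + 1) over all genes, and a call needs a p below 0.01 after Benjamini-Hochberg adjustment. From d0 to d4 in Ctrl all 4 Zscan4 genes rose. The log2 fold change was 3.64 ± 0.32 (SE) for Zscan4c (limma adjusted p = 3.45e-08) and 3.61 ± 0.33 for Zscan4d (adjusted p = 5.37e-08). It was 3.30 ± 0.37 for Zscan4b and 2.80 ± 0.36 for Zscan4e. Zscan4b and Zscan4e passed the filter of the table, given below, only through Ctrl libraries at d4 and d6, so no p is given for their rise. As ratios of mean TPM the rises of Zscan4c, Zscan4d, Zscan4b and Zscan4e are 17.6-fold, 15.6-fold, 17.9-fold and 11.1-fold. From d4 to d6 in Ctrl, Zscan4c fell by 1.14 and Zscan4d by 1.11 on the log2 scale (limma adjusted p = 0.00656 and 0.00927). Zscan4b and Zscan4e were also lower in each library at d6, with no call or p given for the same reason. The Zscan4c call was lost without any 1 of the 6 libraries, with values from -1.24 to -1.01, and the Zscan4d call without any 1 of them except Ctrl d4 replicate 2. At d6 all 4 remained above d0 in Ctrl, by 1.73 to 2.51 on the log2 scale. Zscan4c and Zscan4d were called. For Zscan4b and Zscan4e no call is given, for the reason above, and the Zscan4e difference was 0.63 with quantile normalization.

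Between days in KO none of the 4 Zscan4 genes was called by limma. The adjusted p was 0.151 to 0.98 from d0 to d4, 0.324 to 0.956 from d4 to d6 and 0.0334 to 0.926 from d0 to d6. The members were chosen with earlier results of these libraries known, and the p-values of changes between days are to be read with that in mind.

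Each Zscan4 gene had similar mean shares of their summed TPM across the groups, with wide ranges over single libraries. Over the 18 libraries Zscan4d took 43.9% ± 4.83 (SD), Zscan4c 29.0% ± 3.40, Zscan4b 14.0% ± 3.90 and Zscan4e 13.1% ± 4.28. Single libraries ranged from 36.6% to 52.5% for Zscan4d and 22.4% to 35.4% for Zscan4c. For Zscan4b it was 7.94% to 24.2% and for Zscan4e 8.46% to 25.0%. The shares of Zscan4b and Zscan4e are those of a pair that shares 89.2% and 89.7% of its stretches of 36 bases, so their order is not interpretable. Zscan4d, with the largest share, also has the smallest part of its stretches found in other genes, 60.2% against 90% to 94.1%. The part of this in the order and spread of the shares was not tested.

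**Figure D2:**
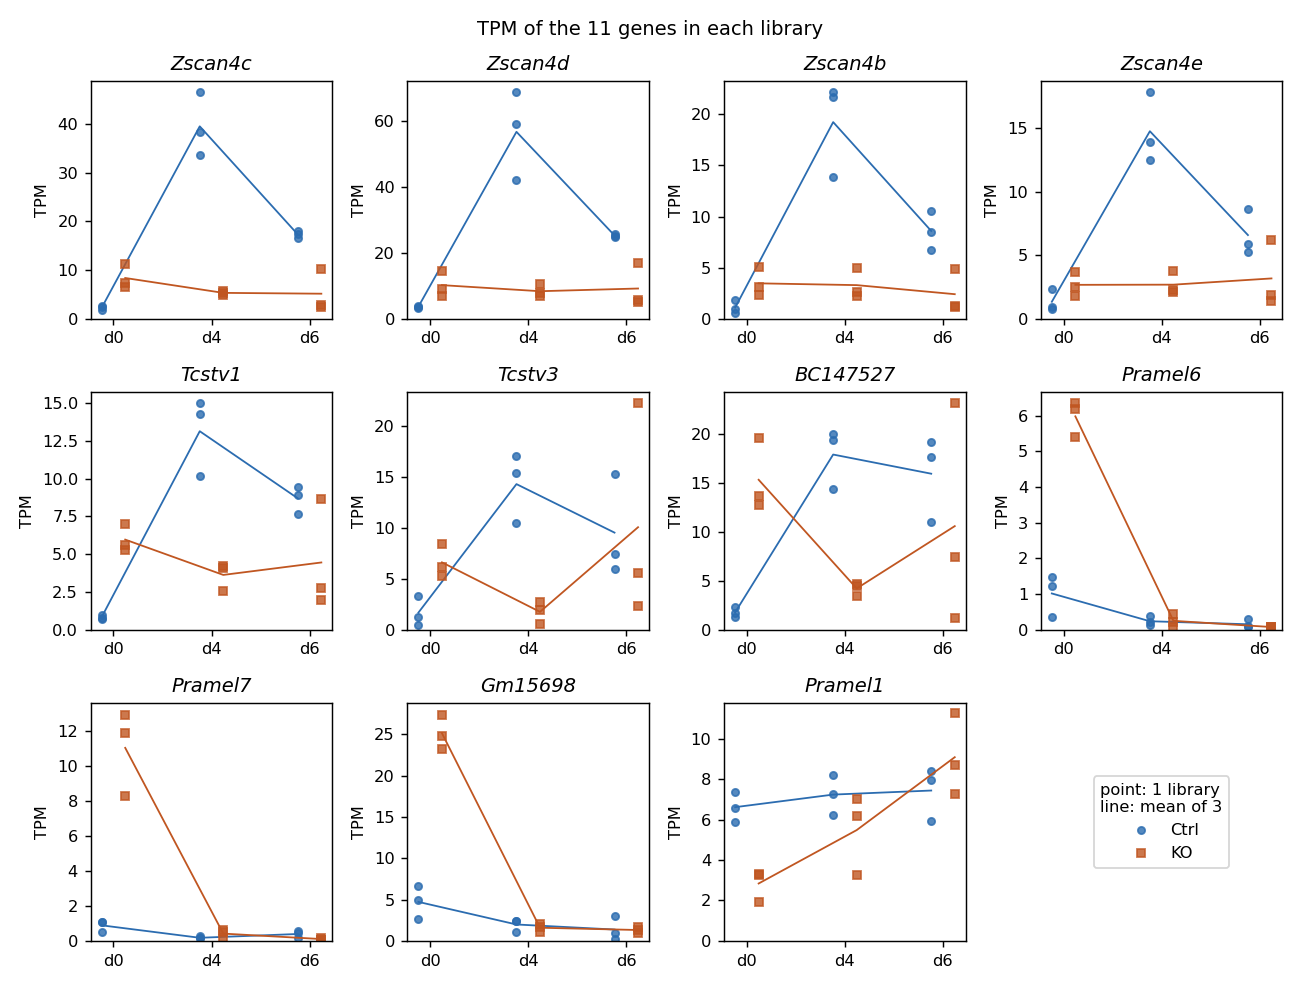
TPM (y axis, linear, from 0) of each of the 11 genes on d0, d4 and d6, with 1 point per library, circles for Ctrl and squares for KO, and lines through the means of 3 libraries. The Zscan4 and Tcstv genes and BC147527 peak or plateau in Ctrl after d0, Pramel6, Pramel7 and Gm15698 are high in KO at d0 (Gm15698 at 23.2 to 27.4 TPM), and Pramel1 is lowest in KO at d0.

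The Tcstv genes and BC147527 also rose in Ctrl from d0 to d4 and were not called changed from d4 to d6, and in KO they were above Ctrl at d0. Summed over the 3 genes, Ctrl had 4.30 ± 1.36 TPM at d0, 45.3 ± 9.03 at d4 and 34.1 ± 8.19 at d6 (mean ± SD, n = 3), and KO had 27.9 ± 4.44, 9.61 ± 1.12 and 25.1 ± 25.6. The spread in KO at d6 comes from single libraries of 54.0, 15.8 and 5.49 TPM, of which replicate 1 is the highest.

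Tcstv1 had 0.998, 0.791 and 0.735 TPM in Ctrl at d0, 14.3, 10.2 and 15.0 at d4, and 9.47, 8.95 and 7.68 at d6. In KO it had 5.25, 5.63 and 7.02 TPM at d0, 4.22, 4.07 and 2.60 at d4, and 8.62, 2.79 and 1.95 at d6. The genotypes do not overlap at d0 or d4. At d6 they overlap through KO replicate 1 alone.

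BC147527, a relative of Tcstv3 in the same cluster, had 2.37, 1.69 and 1.26 TPM in Ctrl at d0, 19.99, 14.3 and 19.3 at d4, and 17.7, 19.1 and 10.9 at d6. The KO libraries had 13.6, 12.7 and 19.5 TPM at d0, 4.68, 4.49 and 3.47 at d4, and 23.1, 7.39 and 1.19 at d6. KO at d0 thus overlapped Ctrl at d4, and KO d6 replicate 1 was above all 3 Ctrl libraries of that day. These values rest on 1 to 4 reads in each Ctrl library at d0 and on 1 to 40 over all libraries.

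Tcstv3 had 0.468, 3.34 and 1.24 TPM in Ctrl at d0 (0, 5 and 1 reads), 15.4, 10.5 and 17.02 at d4, and 15.3, 5.94 and 7.40 at d6. Its KO libraries had 5.25, 8.40 and 6.21 TPM at d0, 1.98, 0.555 and 2.74 at d4, and 22.2, 5.61 and 2.35 at d6. Again KO was above Ctrl at d0 and below it at d4 without overlap, and at d6 the genotypes overlap.

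From d0 to d4 in Ctrl all 3 rose, Tcstv1 by 2.93 ± 0.31 on the log2 scale (limma adjusted p = 3.15e-07), BC147527 by 2.77 ± 0.55 (adjusted p = 0.000241) and Tcstv3 by 2.63 ± 0.57 (adjusted p = 0.000522). The ratios of mean TPM were 15.6-fold, 10.1-fold and 8.49-fold. From d4 to d6 in Ctrl limma called none of the 3 (adjusted p = 0.161 to 0.803), and they remained above d0 at d6, by 2.40, 2.59 and 2.02 (limma adjusted p = 2.5e-06, 0.000399 and 0.00393). Of these the BC147527 and Tcstv3 calls were lost with quantile normalization, at 1.67 and 1.02, and the Tcstv3 call also without Ctrl d0 replicate 1 or 3 or Ctrl d6 replicate 1, at 1.65 to 1.96. In KO none of the 3 was called between any days. The limma adjusted p from d0 to d4 was 0.0153 for BC147527, 0.0252 for Tcstv3 and 0.1 for Tcstv1, each lower at d4 in every library, and the adjusted p from d4 to d6 was 0.0234 for Tcstv3, whose highest KO value at d6 is that of replicate 1.

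Pramel6, Pramel7 and Gm15698 had another course, with their highest values in KO ESCs at d0 and little in any library afterwards. The deposited table keeps genes with at least 5 TPM in at least 3 libraries. Pramel6 and Pramel7 reached 5 TPM in exactly 3 libraries, all of them KO at d0, so they are in the table only through the group in which they are high. Gm15698 reached it in 4 libraries, all at d0 and 3 of them KO, and the other 8 genes in 7 to 14. Zscan4b and Zscan4e, with 7 each, are in the table only through Ctrl libraries at d4 and d6. Differences of Pramel6, Pramel7 and Gm15698 from KO at d0, and of Zscan4b and Zscan4e between days in Ctrl, are therefore given as a description, without a p. Pramel6 had 1.47, 0.365 and 1.22 TPM in Ctrl at d0 and 6.19, 6.35 and 5.41 in KO. On d4 and d6 it was between 0.0706 and 0.449 TPM in both genotypes, and its 3 KO libraries at d6 held 0 reads. Pramel7 had 1.07, 0.522 and 1.08 TPM in Ctrl at d0 and 8.28, 11.9 and 12.9 in KO, and between 0.0752 and 0.643 later. All KO libraries at d0 lie above all other libraries for both genes.

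Gm15698 had 4.95, 6.59 and 2.62 TPM in Ctrl at d0 and 23.2, 24.8 and 27.4 in KO. On d4 and d6 it ranged from 0.241 to 2.97 TPM in Ctrl and from 0.993 to 2.03 in KO. In these later libraries it rests on 0 to 12 reads, against 93 to 125 in KO at d0.

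The log2 difference of d4 from d0 in KO was -2.49 ± 0.20 (SE) for Pramel6, -3.09 ± 0.20 for Pramel7 and -3.34 ± 0.35 for Gm15698. Over the full course to d6 Pramel6 went from 242 reads in KO to 0, at least 77.1-fold lower against a floor of 3 reads over the group. Pramel7 went from 433 reads to 1, a ratio per depth of 414 with a 95% counting interval of 73.9 to 16382, and its log2 difference of d6 from d0 on the TPM scale was -3.42 ± 0.20. That of Gm15698 was -3.50 ± 0.35. The interval covers counting error only.

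In Ctrl the same 3 genes started lower. Pramel6 fell by 0.66 ± 0.20 and Pramel7 by 0.67 ± 0.20 on the log2 scale from d0 to d4 (limma adjusted p = 0.00632 and 0.00682). Both calls were lost without Ctrl d0 replicate 1 or 3 or Ctrl d4 replicate 2 or 3, at -0.64 to -0.49, and the Pramel7 call also without Ctrl d4 replicate 1, at -0.72. From d0 to d6, Pramel6 fell by 0.77 and Gm15698 by 1.37 (limma adjusted p = 0.00212 and 0.00181). The Pramel6 call was lost without Ctrl d0 replicate 1 or 3 (-0.60 and -0.67) and the Gm15698 call without Ctrl d0 replicate 2 or Ctrl d6 replicate 3 (-1.13 and -0.99). With only the groups compared, all of these calls in Ctrl were lost. With a pseudocount of 5 the Pramel6 and Pramel7 calls were lost as well, at -0.22 to -0.18. Whether the falls differ between the genotypes was not tested.

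Pramel1, although of the same family, followed none of these courses. It had 7.35, 5.90 and 6.57 TPM in Ctrl at d0, 6.24, 7.26 and 8.19 at d4, and 7.97, 5.91 and 8.42 at d6. The KO libraries had 1.92, 3.32 and 3.27 TPM at d0, 6.997, 6.18 and 3.26 at d4, and 11.3, 7.28 and 8.69 at d6. Ctrl thus stayed between 5.90 and 8.42 TPM on all days, and KO was below that range in each library at d0. From d0 to d6 in KO Pramel1 rose by 1.397 ± 0.23 on the log2 scale (limma adjusted p = 3.45e-05), a call lost with quantile normalization at 0.66. In Ctrl its adjusted p was 0.589 to 0.926 between days.

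Read against all genes, 7 of the 11 genes were called higher and 2 lower in Ctrl at d4 than at d0, where 45.1% of all genes were called higher and 22.3% lower. The 7 include Zscan4b and Zscan4e, which are in the table only through Ctrl libraries at d4 and d6. Without overlap of the days 7 were higher and 2 lower (51% and 27.5% of all genes). The median log2 change of the 11 was 2.77, beside 0.26 for all genes. From d4 to d6 in Ctrl 2 of the 11 were called lower and 0 higher by limma, against 21.5% and 22.6% of all genes. At an unadjusted p below 0.05 it was 4 lower and 0 higher, and voom on the recovered reads called 4 lower and 0 higher. Without overlap 0 were higher and 5 lower (34.8% and 30.4% of all genes). From d0 to d6 in Ctrl it was 7 higher and 2 lower (45.8% and 25.8% of all genes), and without overlap 7 and 1 (50.8% and 29.7%).

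In KO 0 of the 11 were called higher and 3 lower from d0 to d4 (35.8% and 20.9% of all genes), with 1 higher and 5 lower at an unadjusted p below 0.05 and 0 and 3 with voom. Without overlap 0 were higher and 7 lower (43.1% and 26.5%). The 3 called lower are Pramel6, Pramel7 and Gm15698, which are in the table through their KO libraries at d0, and nothing is read from their count. From d4 to d6 in KO limma called 0 of the 11 in either direction (21.5% of all genes higher, 19.9% lower), 2 were higher and 0 lower at an unadjusted p below 0.05, and voom called 0. Without overlap 1 was higher, Pramel1, and 1 lower, Pramel6 (29.3% and 25.8%). KO d4 replicate 1 also had 0 reads of Pramel6, so that its 0.0865 TPM, against 0.0734 to 0.0808 at d6, is the added read alone and no difference in reads. Between d0 and d6 in KO 1 was called higher and the same 3 lower (40.3% and 27.4%), as many as did not overlap (44% and 30.4%), and without KO d6 replicate 1 it was 7 lower. The median log2 changes in KO were -0.60, -0.05 and -0.54, beside 0.15, 0.03 and 0.17 for all genes. The change from d0 to d4 in Ctrl and that in KO rest on different libraries, and no test of their difference was made here.

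Between genotypes at d0, the log2 difference of KO from Ctrl was 1.501 ± 0.32 (SE) for Zscan4c, 1.22 ± 0.33 for Zscan4d, 1.10 ± 0.37 for Zscan4b and 0.68 ± 0.36 for Zscan4e. For the genes on chromosome 13 it was 1.91 ± 0.31 for Tcstv1, 2.55 ± 0.55 for BC147527 and 1.63 ± 0.57 for Tcstv3. The mean TPM of Tcstv1 was 7.09-fold and that of BC147527 8.63-fold higher in KO, and that of Zscan4c 3.72-fold. Pramel6 differed by 1.83 ± 0.20 (5.88-fold), Pramel7 by 2.66 ± 0.20 (12.4-fold) and Gm15698 by 2.25 ± 0.35 (5.32-fold), and Pramel1 by -1.01 ± 0.23, 2.33-fold higher in Ctrl. As a description, 7 of the 11 genes were called higher in KO, among them Pramel6 and Pramel7, which are in the table only through KO at d0, and 1 lower, and 9 were higher and 1 lower without overlap of the genotypes. Over all genes 10.6% were called higher and 16.4% lower, and 19.9% and 31.5% did not overlap. On this scale the differences of low genes are understated, and they move with the pseudocount. Pramel6, for example, differed by 0.87 with a pseudocount of 5 and by 2.87 with voom on reads, and Tcstv3 by 0.81 and 2.95. These counts and differences describe genes that were proposed with such results known. The count of 1 lower, Pramel1, became 0 with quantile normalization and without Ctrl d0 replicate 1 or KO d0 replicate 1.

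At d4 all Zscan4 and Tcstv genes and BC147527 were lower in KO, without overlap. The log2 difference was -2.68 ± 0.32 for Zscan4c, -2.62 ± 0.33 for Zscan4d, -2.27 ± 0.37 for Zscan4b, -2.11 ± 0.36 for Zscan4e, -1.61 ± 0.31 for Tcstv1, -2.54 ± 0.57 for Tcstv3 and -1.85 ± 0.55 for BC147527. The means were 3.62-fold (Tcstv1) to 8.12-fold (Tcstv3) higher in Ctrl. Pramel6, Pramel7, Gm15698 and Pramel1 differed by 0.01, 0.25, -0.18 and -0.39 and were not called. As a description, 7 of the 11 were called lower, where 32.7% of all genes were called lower and 12.7% higher, and the 7 lower without overlap stand beside 45.7% of all genes, with 0 of the 11 and 20% of all genes higher without overlap. Zscan4b and Zscan4e, among the 7, are in the table only through Ctrl libraries at d4 and d6. Higher at d0 and lower at d4, both without overlap, were 6 of the 11 (9.28% of all genes).

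At d6 the log2 difference was -1.80 ± 0.32 for Zscan4c, -1.57 ± 0.33 for Zscan4d, -1.65 ± 0.37 for Zscan4b, -1.02 ± 0.36 for Zscan4e and -1.02 ± 0.31 for Tcstv1, and of these all but Zscan4e were called lower. BC147527 differed by -1.11 ± 0.55 and Tcstv3 by -0.29 ± 0.57, neither called, and the Pramel genes and Gm15698 by -0.32 to 0.25. The count of 4 lower stands beside 34.3% of all genes called lower and 17.9% called higher, and the 3 Zscan4 genes lower without overlap beside 41.1%, with 0 of the 11 and 22.7% of all genes higher without overlap. These 3 were also higher at d0 without overlap (7.92% of all genes). Over d0, d4 and d6 the median log2 difference of the 11 was 1.63, -1.85 and -1.02, against -0.07, -0.16 and -0.14 over all genes.

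**Figure D3:**
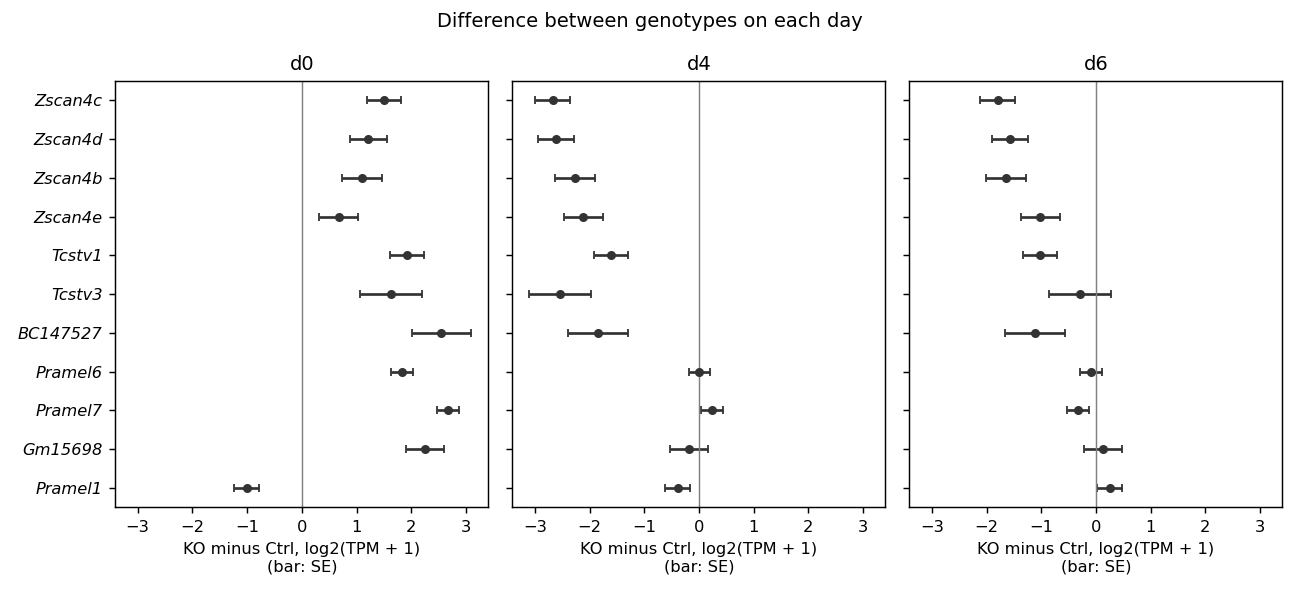
Log2 difference KO minus Ctrl on the log2(TPM + 1) scale (x axis) for each of the 11 genes (rows) on d0, d4 and d6, with bars for the SE from the fit over all 18 libraries. The 7 Zscan4 and Tcstv family genes lie right of 0 at d0 (0.68 to 2.55) and left of it at d4 (-2.68 to -1.61).

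A single library weighed on the d6 values. KO d6 replicate 1 had summed Zscan4 TPM of 38.2, against 11.1 and 10.3 in the other KO libraries of that day, and the 3 Tcstv family genes stood out in the same library. Without it the d6 difference was -2.34 for Zscan4c, -2.07 for Zscan4d, -2.12 for Zscan4b, -1.51 for Zscan4e, -1.53 for Tcstv1, -1.94 for BC147527 and -1.06 for Tcstv3, and 6 of the 11 genes were called lower in place of 4. That library had 11100414 reads, close to the 11877810 and 11376022 of the other KO libraries of that day. It differed from them in other genes too, with 1083 summed TPM of 9 trophectoderm markers against 2047 and 2091, and 2539 of 14 naive pluripotency markers against 2082 and 2092. Their part in the Zscan4 and Tcstv values was not tested.

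The spread between libraries of a group was set beside the spread that counting reads alone gives, and the same ratio over all genes was not computed. For the Zscan4 genes the SD between the 3 libraries of a group was a median of 2.01 times the SD from counting (0.579 to 7.56 over 22 combinations of gene and group with a mean of at least 10 reads). Some combinations thus lay below the SD from counting. For the Tcstv family the median was 1.34 (13 combinations) and for the Pramel genes 1.48 (10 combinations). It was highest in KO at d6, with a median of 4.499 over 8 genes, and 1.10 in Ctrl at d0, 1.88 in Ctrl at d4, 1.47 in Ctrl at d6, 1.45 in KO at d0 and 1.70 in KO at d4.

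Within groups the Zscan4 and Tcstv genes deviated together. Over 18 libraries, the correlation of deviations from group means had a median Pearson r of 0.80 among the 4 Zscan4 genes, which share reads, and 0.73 between Zscan4 genes and the Tcstv family, which share no stretch of 36 bases. Among Pramel6, Pramel7 and Gm15698 it was -0.22 (-0.28 to 0.57), and between these 3 genes and the other 7 it was 0.02. For the whole profile over the 18 libraries the medians were 0.96 among Zscan4 genes, 0.79 between Zscan4 and the Tcstv family, 0.92 among Pramel6, Pramel7 and Gm15698, and -0.16 between the sets. These are descriptions, and all points share libraries and depth. KO d6 replicate 1 stood far above its group for both families (Zscan4 sum of 38.2 TPM against 11.1 and 10.3). The correlations of deviations include it and were not computed without it. With a pseudocount of 0.1 the median between Zscan4 genes and the Tcstv family was 0.68 (0.29 to 0.84).

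**Figure D4:**
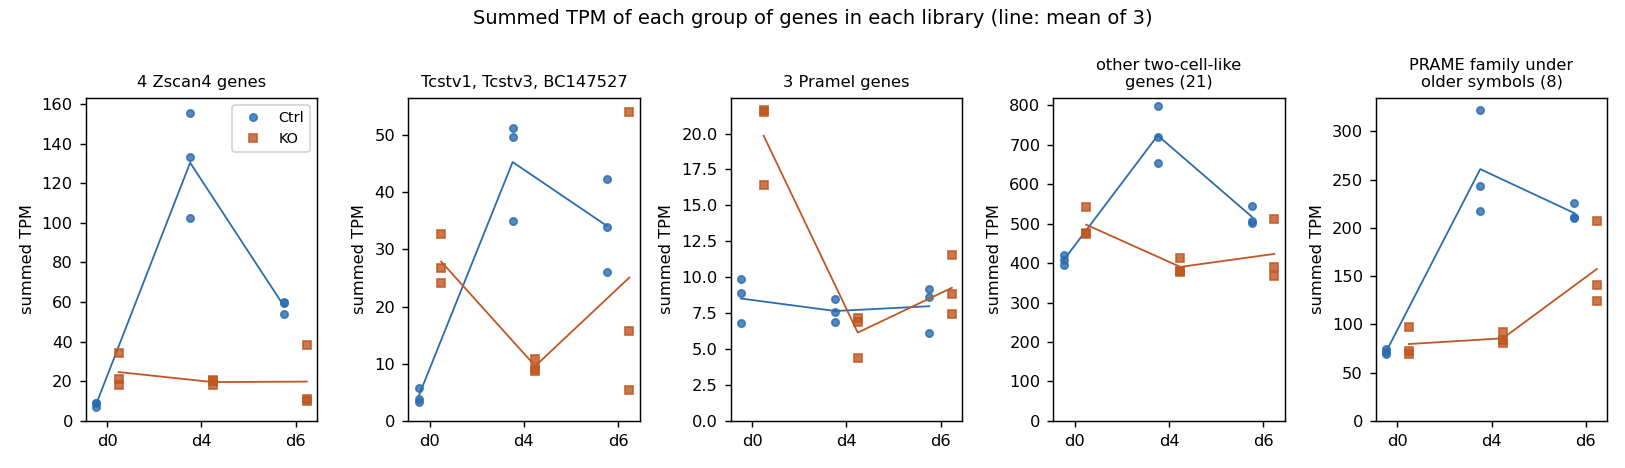
Summed TPM (y axes, linear, from 0, each with its own scale) per library on d0, d4 and d6 for the 4 Zscan4 genes, the 3 Tcstv family genes, the 3 Pramel genes, 21 other two-cell-like genes and 8 genes of the PRAME family under older symbols. Circles are Ctrl, squares KO and lines means of 3 libraries. The Pramel sum includes Pramel1, which had another course than Pramel6 and Pramel7. In Ctrl the Zscan4 sum goes from 8.29 to 130.4 TPM between d0 and d4, and at d6 a single KO library, replicate 1, stands above the other KO libraries.

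Among genes that are no members, those with a profile most like the mean of the Zscan4 genes over the 18 libraries were Usp17lb (Pearson r = 0.98), Tmem92, Gm20767, Gm12794 and Pramef25 (r = 0.96). For the Tcstv family these were Zfp352 (r = 0.96), Slc10a6, Gm8994, Usp17le and Ppox (r = 0.90), and for the Pramel genes BC053393 (r = 0.96), Tnni1, Tmco5b, Elovl7 and Cnga4 (r = 0.94). The Pramel mean joins Pramel1 with Pramel6 and Pramel7, although the profile of Pramel1 ran against both (r = -0.79 with each). By deviations from group means, genes among the nearest to Zscan4 were Casc4 (r = 0.91), Gm13078, Eif2s3y and Gm8994 (r = 0.91). Among the nearest to the Tcstv family were Tmem132c (r = 0.93), Wsb1, Gm6189 and Eif2s3y (r = 0.91), and to the Pramel genes Zfp280c (r = 0.87), Gm5124, Slc6a15, Gpd2 and Ube2r2 (r = 0.79). Gm20767 shares 36-base stretches with Tcstv1 and Tcstv3. The deviations include KO d6 replicate 1, in which the Zscan4 and Tcstv genes stood out.

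A list of 63 other genes known from two-cell embryos or two-cell-like cells had 21 in the table. The list was written with earlier results of these libraries known, so its counts and adjusted p are not independent evidence, and several of its genes have close copies too. In Ctrl 16 of 21 rose and 4 fell from d0 to d4, with a median log2 change of 2.86, where 45.1% of all genes were called higher and 22.3% lower and their median was 0.26. At d0, 10 were higher and 2 lower in KO, with a median log2 difference of 1.17 (10.6% and 16.4% of all genes, median -0.07). Leaving out any 1 library gave 6 to 8 higher, with 6 without Ctrl d0 replicate 1 or KO d0 replicate 3. Gm2022 (20.04 against 3.97 TPM, 2.16 ± 0.41, limma adjusted p = 0.000557), Gm2016 (1.97 ± 0.41, adjusted p = 0.00122) and Gm5662 (1.82 ± 0.29, adjusted p = 0.000124) had the largest differences. Piwil2, a PIWI protein of the germline, was lower (-1.20 ± 0.09, adjusted p = 1.18e-07), as was the PRAME family gene Pramef8 (-0.89 ± 0.10, adjusted p = 4.6e-06).

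At d4, 17 of the 21 were lower and 1 higher in KO, with a median of -1.72 (32.7% and 12.7% of all genes, median -0.16). Tmem92 had 5.36 against 29.4 TPM (-2.27 ± 0.30, limma adjusted p = 1.23e-05), Gm12794 13.5 against 63.4 (-2.20 ± 0.38, adjusted p = 0.00014) and Gm20767 9.31 against 43.1 (-2.16 ± 0.37, adjusted p = 0.000126). The translation initiation factor gene Eif1a was the 1 higher, by 0.24 (adjusted p = 0.00309). At d6, 7 were lower and 2 higher with a median of -1.03 (34.3% and 17.9% of all genes, median -0.14), led by Tmem92 (-1.72, adjusted p = 0.000125), Gm20767 (-1.66, adjusted p = 0.000911) and Gm2022 (-1.58, adjusted p = 0.00304), with Piwil2 (0.57, adjusted p = 5.56e-05) and Eif1a (0.31, adjusted p = 0.000279) higher. Without KO d6 replicate 1, 14 were lower, and without Ctrl d6 replicate 1 or KO d6 replicate 3 it was 4. In KO 1 of the 21 rose and 3 fell from d0 to d4 (35.8% and 20.9% of all genes).

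**Figure D5:**
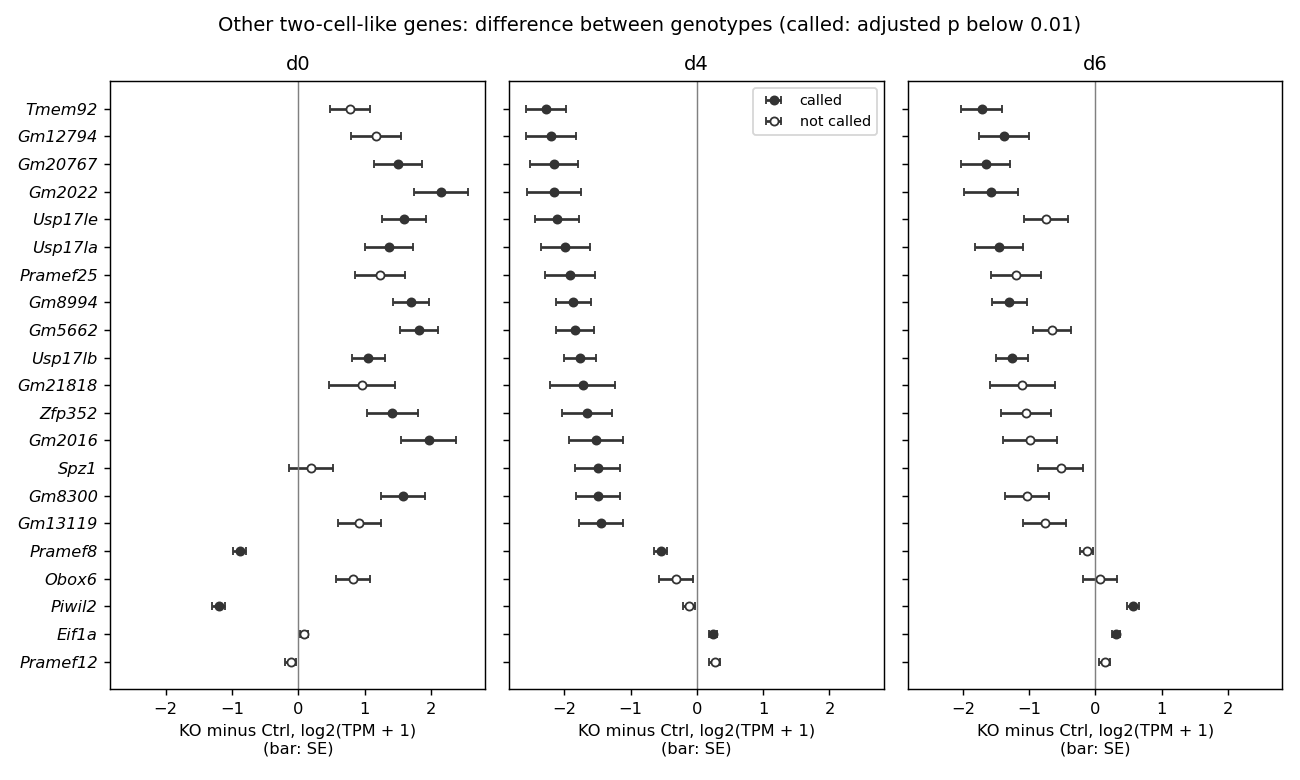
Log2 difference KO minus Ctrl on the log2(TPM + 1) scale (x axis, bars are SE) for each of the 21 other two-cell-like genes (rows, ordered by d4) on d0, d4 and d6. Filled points were called at an adjusted p below 0.01. At d4, 17 of the 21 were called lower and 1 higher.

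More genes of the PRAME family are in the table under older symbols, 8 in all, an addition chosen after seeing the data, and 5 of them are also in the list above. They are therefore described without a test. Their median log2 change in Ctrl from d0 to d4 was 3.04, and their median log2 difference of KO from Ctrl was 0.97, -1.82 and -0.82 on d0, d4 and d6. At d4 BC080695 had 7.91 TPM in KO against 41.6 in Ctrl (log2 difference -2.24 ± 0.38, SE) and Gm13078 12.03 against 59.3 (-2.17 ± 0.37), beside Gm12794 above. The 8 did not share one course. From d0 to d4 in Ctrl, Pramef12 changed by -0.69 ± 0.08 and Pramef8 by -0.24 ± 0.10, while the other 6 rose. At d4 Pramef12 was higher in KO, by 0.27 ± 0.08, and Pramef8 lower, by -0.55 ± 0.10.

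Neighbouring genes give the local setting of each locus. Pramel6 and Pramel7 had 5 other genes of the table within 1 Mb, of which 0 were called on any day and whose median log2 differences of KO from Ctrl on the 3 days were -0.24, 0.03 and 0.09. Around the Tcstv family, 2 of 9 neighbours were called higher at d0 and 5 lower at d4, and these 9 include the relatives Gm21818 and Gm20767. Pramel1 had 15 neighbours, 7 of them PRAME family genes, with 1 higher and 1 lower at d0 and 8 lower at d4. The Zscan4 genes had at most 2 neighbours in the table (Zik1 and Gm10179), and 0 of these were called at d0 or d4. At d6 Zik1 was called lower in KO (-0.99). Over the whole of chromosomes 2, 4, 7, 11 and 13 the median difference was -0.11 to -0.07 at d0.

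Gm15698 shares 111 of its 808 stretches of 36 bases with Coil, its neighbour, and 104 with the pseudogene 2210409E12Rik, a pair looked up after the values were seen. Coil was at 84.5 TPM in KO and 93.9 in Ctrl at d0 (log2 difference -0.15 ± 0.06, SE). 2210409E12Rik was at 76.0 against 23.2 TPM (log2 difference 1.68 ± 0.44, SE) at d0, and at 3.91 against 3.75 at d4. Gm15698 and the pseudogene thus both had their highest values in KO at d0, and the part of shared reads in this was not tested.

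Promoter windows of RefSeq (GRCm38.p6), from 250 bases before the start to 50 after it, were at hand for 8 of the 11 genes, not for Tcstv1, Tcstv3 and Zscan4e. The 250 bases of Pramel7 (chr2:87492419-87492668, minus strand) lie inside the gene as GENCODE places it (chr2:87489087-87497093). Its window is thus not upstream of the gene as placed there. The 250 bases before the start of the Zscan4 genes are shown because these genes rose together. Capitals mark TATAAAA on the gene's strand.
Zscan4c (chr7:11005495-11005744, plus strand): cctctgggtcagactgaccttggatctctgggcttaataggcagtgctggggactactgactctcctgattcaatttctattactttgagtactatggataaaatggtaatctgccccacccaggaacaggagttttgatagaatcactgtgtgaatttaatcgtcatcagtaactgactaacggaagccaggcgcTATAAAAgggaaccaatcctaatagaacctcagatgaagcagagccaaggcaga
Zscan4d (chr7:11166149-11166398, minus strand): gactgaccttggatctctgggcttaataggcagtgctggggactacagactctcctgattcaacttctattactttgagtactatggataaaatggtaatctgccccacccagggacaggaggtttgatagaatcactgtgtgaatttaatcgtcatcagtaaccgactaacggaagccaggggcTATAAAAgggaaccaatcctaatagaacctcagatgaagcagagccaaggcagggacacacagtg
Zscan4b (chr7:10905051-10905300, minus strand): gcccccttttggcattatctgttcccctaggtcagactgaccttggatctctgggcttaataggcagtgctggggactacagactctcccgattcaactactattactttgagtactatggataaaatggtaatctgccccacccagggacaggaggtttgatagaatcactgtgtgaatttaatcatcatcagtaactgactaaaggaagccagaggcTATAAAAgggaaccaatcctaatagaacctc

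TATAAAA begins 54, 65 and 31 bases before the annotated start of Zscan4c, Zscan4d and Zscan4b, and 3.27% of all 32851 windows of 300 bases hold it on the gene's strand. The 250 bases before the start were aligned between genes, with gap bases counted as differences. Zscan4c and Zscan4d were 88.9% identical over them, Zscan4c and Zscan4b 78.8%, and Zscan4d and Zscan4b 73.9%. These 3 alignments held 22, 46 and 68 gap bases. Of the aligned bases, 232 of 239, 215 of 227 and 210 of 216 were identical, in the same order. The stretches are cut at annotated starts at different distances from TATAAAA, so they are offset against each other. Pramel6 and Pramel7 were 42.9% identical over their 250 bases, within the 40.1% to 49.2% of the other pairs.

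Zeb2 is known to bind CACCT and CACCTG. Searched on both strands of the same windows, CACCT was found in 51.9% of all windows and CACCTG in 20.2%, every CACCTG being a CACCT too. The windows of Zscan4b, Zscan4c, Zscan4d, Pramel6, Pramel7 and Gm15698 hold neither. That of BC147527 has a CACCTG just after the start, and that of Pramel1 has a CACCTG 220 bases before it, of which the CACCT is in capitals here.
Pramel1 (chr4:143394191-143394440, plus strand): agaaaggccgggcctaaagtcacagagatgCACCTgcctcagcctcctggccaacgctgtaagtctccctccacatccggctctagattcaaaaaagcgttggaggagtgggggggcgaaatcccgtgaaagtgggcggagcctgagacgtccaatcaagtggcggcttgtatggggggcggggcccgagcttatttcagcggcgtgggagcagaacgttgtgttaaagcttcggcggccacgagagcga

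A match is a run of letters in these windows and says nothing of binding.

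Known regulators of the two-cell-like state were looked at as 2 lists. For these and the lists below, the shares of all genes called higher and lower in KO were 10.6% and 16.4% at d0, 12.7% and 32.7% at d4, and 17.9% and 34.3% at d6, and all lists were written with earlier results of these libraries known. Of 9 activators 8 were measured. At d0, 0 were higher and 1 lower in KO, Dppa3 (142 against 287 TPM, -1.01 ± 0.15, limma adjusted p = 6.09e-05), a maternal factor. Dppa2 and Dppa4, a pair that acts upstream of Dux, were at 85.1 against 87.7 and 77.8 against 77.3 TPM (adjusted p = 0.835 and 0.974). At d4, 1 was higher (Dppa4, 0.53, adjusted p = 7.11e-05) and 3 lower (Dppa3 by -1.404, and the topoisomerase genes Top2b and Top2a by -0.46 and -0.21), and at d6, 3 were higher (Dppa4 by 1.22, Dppa3 by 0.58 and Kdm5b by 0.21) and 1 lower (Top2b, -1.25).

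Of 31 repressors 28 were measured, with 3 higher and 4 lower in KO at d0, 6 and 5 at d4, and 7 and 8 at d6. The chromatin remodeller Smarca5 (0.67 ± 0.06, limma adjusted p = 5.32e-07), Ring1 (0.38) and Max (0.38) were higher at d0, and Lin28a (-0.70), the chromatin assembly gene Chaf1b (-0.48) and the demethylase gene Kdm1a (-0.23) lower. At d4 Myc (1.20), Nr0b1 (0.45) and L3mbtl2 (0.37) were higher and Ring1 (-0.67), Lin28a (-0.44) and Dnmt1 (-0.30) lower. At d6 Nr0b1 (0.97), L3mbtl2 (0.61) and Zfp281 (0.58) were higher and Ring1 (-1.32), Dnmt1 (-0.67) and the histone methyltransferase gene Ehmt2 (-0.63) lower.

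All 8 DNA methylation enzymes of the list were measured, a list of interest because of the known tie of Pramel7 to Uhrf1. At d0, 0 were higher and 1 lower in KO, Dnmt3l (2.00 against 4.36 TPM, -0.83 ± 0.16, limma adjusted p = 0.000537), and Uhrf1 was at 376 against 335 TPM (adjusted p = 0.021). At d4, 4 were higher and 2 lower. The de novo methyltransferase gene Dnmt3b was at 345 against 40.6 TPM (3.05 ± 0.15, adjusted p = 1.62e-10), with Dnmt3l (1.64) and Dnmt3a (0.79) also higher and Tet3 (-1.07) and Dnmt1 (-0.30) lower. At d6, 4 were higher and 2 lower again, with Dnmt3b (3.06), Dnmt3l (1.62) and Tet1 (1.22) and with Tet3 (-1.62) and Dnmt1 (-0.67).

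The cell state of the libraries was read from markers. Of 14 naive pluripotency markers, 14 fell in Ctrl from d0 to d4 (22.3% of all genes called lower), while the Zscan4 genes rose. Over the same days 13 of them fell in KO (20.9% of all genes), where no Zscan4 gene was called changed. In KO 2 were higher than in Ctrl and 1 lower at d0 (Tcl1 0.92, Esrrb 0.40, Dppa3 -1.01), 5 and 2 at d4 (Fgf4 2.23, Dppa5a 1.305, Tcl1 0.71, Dppa3 -1.404, Tfcp2l1 -0.62), and 8 and 1 at d6 (Fgf4 3.42, Dppa5a 1.59, Nanog 1.42, Klf4 -0.83). Of 6 general pluripotency markers, 0 were higher and 3 lower at d0 (Lin28a -0.70, Sox2 -0.46, Sall4 -0.25), 3 and 1 at d4 (Tdgf1 1.49, Pou5f1 1.17, Utf1 0.91, Lin28a -0.44), and 3 and 0 at d6 (Tdgf1 3.81, Utf1 3.08, Pou5f1 2.68). At d4 and d6 more pluripotency markers were thus higher than lower in KO, days on which the Zscan4 genes were lower.

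Markers of other cells the cultures could hold were summed per library. The 4 measured of 8 fibroblast markers gave 7.91 to 9.27 TPM in Ctrl and 4.49 to 5.55 in KO at d0, 15.0 to 17.1 and 14.2 to 19.3 at d4, and 33.7 to 41.4 and 37.6 to 49.6 at d6. Of these 0 were called at d0, 0 higher and 3 lower at d4 (Pdgfrb -0.92, Col1a2 -0.84, Col1a1 -0.81), and 1 higher and 3 lower at d6 (Thy1 2.47, Col1a1 -1.88, Col1a2 -1.75, Pdgfrb -0.73). Col1a2 was near 0 at d0, at 0.0843 TPM in Ctrl and 0.0426 in KO. The other 4 markers of the list were not analysed here.

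The 7 measured of 8 primitive endoderm markers summed to 6.08 to 6.78 TPM in Ctrl and 4.34 to 4.87 in KO at d0, 31.6 to 33.8 and 10.6 to 17.2 at d4, and 110 to 177 and 41.2 to 58.6 at d6. At d0, 0 were called, at d4 0 were higher and 5 lower in KO (Foxa2 -1.74, Dab2 -1.48, Sox7 -1.22), and at d6 0 and 7 (Gata6 -2.30, Pdgfra -1.91, Cubn -1.58). Gata4 was at 4.55 TPM in KO and 5.24 in Ctrl at d4, and was lower in KO at d6 (-1.44). These markers thus moved with the Zscan4 and Tcstv genes in Ctrl at d4 and between genotypes at d4, and their part in those values was not tested.

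The 9 measured of 11 trophectoderm markers summed to 156 to 177 TPM in Ctrl and 180 to 183 in KO at d0, 243 to 256 and 280 to 288 at d4, and 1096 to 1690 and 1083 to 2091 at d6. In KO 2 were higher and 2 lower at d0 (Plet1 0.97, Tead4 0.71, Krt18 -0.97, Tfap2c -0.68), 2 and 3 at d4 (Plet1 0.77, Tead4 0.48, Tfap2c -1.58, Krt7 -1.40, Gata3 -1.05), and 2 and 4 at d6 (Eomes 1.86, Plet1 0.61, Krt7 -2.03, Gata3 -0.87, Tfap2c -0.83). Hand1 was near 0 at d0 (0.0994 TPM in KO, 0.210 in Ctrl) and the fourth lower at d6 (-0.79), and Krt8 was not called on any day. Of 10 germline genes 9 were measured, with 1 higher and 7 lower in KO at d0 (Stk31 0.87, Tex101 -2.20, Mael -1.38, Slc25a31 -1.22), 1 and 2 at d4 (Sycp3 0.85, Dazl -1.06, Slc25a31 -0.57), and 4 and 3 at d6 (Sycp3 1.82, Mael 0.95, Tdrd1 0.70, Stk31 -1.54, Dazl -1.21, Taf7l -0.93). Germline genes were thus mostly lower in KO at d0, where the Zscan4 and Tcstv genes were higher.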

How the data were processed

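RNA of 18 libraries was sequenced by the study as single 36-base reads on TruSeq libraries. The authors aligned them with TopHat2 2.0.13 to GRCm38, counted reads per gene with featureCounts 1.4.6 and deposited TPM values computed from counts with 1 read added. They removed short noncoding genes, low genes and the least variable genes. The deposited table has 11046 entries of 10965 genes, and the first of each repeated entry was kept. Its 3 score columns, which the authors computed over all libraries, were not used. The authors tested counts with DESeq2.

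Whole reads were recovered for 100% of the genes (tolerance 1e-06). log2(TPM + 1) was fitted with limma 3.58.1 in R 4.3.3 (6 group means, eBayes with trend), with Benjamini-Hochberg adjustment over all genes and calls at an adjusted p below 0.01. Python 3.11.15 (numpy 2.4.6, pandas 2.3.3, matplotlib 3.10.9) did the rest. On simulated data for KO against Ctrl at d4, with 200 of 10965 genes changed, 97% were recovered at a log2 change of 2 (7 false calls) and 37% at 1 (1 false call). The simulation gave all genes the same spread beyond counting. Its shares therefore do not carry over to members with a wider spread, such as Zscan4d in KO at d6 (7.56 times the SD from counting).

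The members and lists were chosen with earlier results of these data known. All members are named. Of each list up to 3 called genes of largest change in each direction are named, with the defining markers of other cell types whatever their call, and of other genes the 5 most correlated with each family, of which some are not reported here. Coding sequences are from GENCODE M21 and promoter windows from RefSeq (GRCm38.p6). Alternatives were the pseudocount (0.1 and 5), a mean TPM of at least 10, median-ratio rescaling, quantile normalization, eBayes without trend, only the groups compared, a replicate block, voom on the recovered reads, and leaving out each library.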

Additional observations from a re-analysis of the deposited data

Results flagged for a closer look

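For 6 genes the libraries of the genotypes were fully apart in opposite directions on different days, which is why they stand here. The difference between days was not tested. On d0, d4 and d6, Zscan4c had log2 differences of KO from Ctrl of 1.501, -2.68 and -1.80, Zscan4d 1.22, -2.62 and -1.57, and Zscan4b 1.10, -2.27 and -1.65. BC147527 had 2.55 at d0 and -1.85 at d4, Tcstv3 1.63 and -2.54, and Tcstv1 1.91 and -1.61, with overlap at d6. Of all genes, 1018 (9.28%) were apart with KO higher at d0 and lower at d4, and 868 (7.92%) with KO higher at d0 and lower at d6. The comparisons of each day use other libraries, and the genes were chosen with earlier results of these libraries known.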

How the results depend on the processing

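Of the 7 Zscan4 and Tcstv family genes, Zscan4b and Zscan4e are in the table only through Ctrl libraries at d4 and d6. Nothing is read from their calls. The rise of the others from d0 to d4 in Ctrl was called in each setting and without each library. The exception is a mean TPM of at least 10, which left only 3 of them in the table. That minimum gave, of the members, 3 higher and 0 lower at d0, 3 lower at d4, 2 lower at d6, 3 higher and 0 lower in Ctrl both at d4 and at d6 against d0, 0 lower from d0 to d4 and 0 either way from d0 to d6 in KO, and of the other two-cell-like genes 6 higher at d0 and 2 higher and 10 lower at d4, since fewer genes were tested. The cause was not tested for the following. Quantile normalization gave 0 members lower at d0, 4 lower from d4 to d6 and 4 higher and 4 lower from d0 to d6 in Ctrl, 6 lower from d0 to d4 and 0 higher and 6 lower from d0 to d6 in KO. Of the other two-cell-like genes it gave 2 higher at d4, as did median-ratio rescaling and a pseudocount of 0.1. That pseudocount also gave 0 lower from d4 to d6 in Ctrl and 1 higher from d0 to d4 in KO, and a pseudocount of 5 gave 0, 4 and 1 lower in Ctrl from d0 to d4, d4 to d6 and d0 to d6. With only the groups compared, 2 members and 2 other genes were lower at d6, 0, 4 and 0 members lower in Ctrl over the same 3 steps, and 5 lower from d0 to d4 in KO. From d4 to d6 in Ctrl, eBayes without trend gave 1 lower and voom 4.

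Leaving out 1 library gave 5 to 7 members higher and 0 to 1 lower at d0, 6 lower at d4 and 3 to 6 at d6. Of the other two-cell-like genes it gave 6 to 8 higher at d0, 0 to 2 higher and 15 to 16 lower at d4, and 4 to 14 lower at d6. In Ctrl 0 to 2 members were lower from d0 to d4, 0 to 1 from d4 to d6, and 6 to 7 higher and 1 to 2 lower from d0 to d6. In KO it was 0 to 1 higher and 3 lower from d0 to d4, 0 to 2 higher and 0 to 1 lower from d4 to d6, and 3 to 7 lower from d0 to d6, with 7 reached without KO d6 replicate 1.

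Replicate numbers share no stated animal, batch or day. Same-numbered libraries had a median correlation of deviations from group means of 0.15 (-0.09 to 0.34, 45 pairs) and others -0.05 (90 pairs). With the replicate block, 1 member in place of 2 was lower from d4 to d6 in Ctrl, and no other count of calls named here moved by over 1.5 times. Genes with few reads, such as BC147527 with 1 to 4 reads in Ctrl at d0, limit the precision of single values.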
